A study of Rattus norvegicus with 12 samples.

Results

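RT1-Ba, RT1-Db1, RT1-DMa, RT1-DMb and Ctss, 5 genes of antigen presentation by MHC class II, were followed in the blood of rats given lipopolysaccharide (LPS), a cell wall component of Gram-negative bacteria. They were chosen by gene symbol in the platform annotation, with earlier results of these data known. They are 5 of the 3939 named genes on the arrays, with 1 of the 7200 probes each. MHC class II molecules are pairs of an alpha and a beta chain that present peptides from the endosomes of antigen-presenting cells to CD4+ T cells, and in blood they are carried mainly by B cells, monocytes and dendritic cells. The invariant chain holds the groove of a newly made class II molecule, lysosomal proteases trim that chain, and the DM dimer exchanges the remaining fragment for an antigen peptide. Transcription of the genes for class II and DM chains depends on factors bound to conserved X and Y boxes in their promoters and on the coactivator CIITA.

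Total RNA of 6 LPS-treated rats was hybridised to 12 arrays, with 3 rats taken at 2 h and 3 at 6 h. Every rat has 2 arrays on which the other channel holds the control pool of that time, a fluor array with the pool in channel 1 and a flip array with the channels exchanged. The rats at 2 h are numbered 1, 2 and 3 and those at 6 h are numbered 2, 4 and 6. Whether the rats numbered 2 are the same animal is not stated. They were treated as different samples, and the count of 6 rats and the tests assume that they differ. Blood is named by the series title alone. The sources used here do not give strain, age, sex, dose and route, what the control animals received or how many went into a pool. Each value is the log2 ratio of the channels, with the 2 arrays of a rat averaged, and n = 3 rats throughout. The pool counts as 1 control sample, so the tests leave out its own spread, and the 6 h minus 2 h difference also holds any difference between the pools. Where nothing says that the rats were treated independently, the p-values measure only the spread between these samples.

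Ratios were read as LPS over control pool in the direction in which they were deposited, and this direction is likely, not settled. The dyes are not given, and over all probes a rat's fluor array and its flip array correlated at -0.23 to 0.25 (above 0 in 4 of 6 rats), against 0.45 to 0.65 among fluor arrays and 0.38 to 0.66 among flip arrays. Of a list of 28 textbook LPS-induced genes 9 were measured. Ratios were above 0 on each of the 12 arrays for 5 of them (Irf1, Zfp36, Lcn2, Il1b and Il1r2), against 3.88% of all genes. Il1b was the highest of the 9, with means of 3.90 at 2 h and 2.05 at 6 h. At limma adjusted p under 0.05, 4 of the 9 were called higher at 2 h and 6 at 6 h, Tnf among the latter. Tnf stood at 0.22 at 6 h and at -0.0037 at 2 h, and was below 0 on 4 arrays. Over all genes 9.34% and 8.30% were called higher. At either time 0 of the 9 fell significantly, which is near the background of 9.82% and 10.7% of all genes called lower. Nfkbia was below 0 on 9 arrays. When the sign of the flip arrays was turned instead, 0 of the class II genes passed at either time. Turning leaves only what differs between the 2 arrays of a rat as deposited. Ratios alike on both arrays then move towards 0, so the lost calls do not decide the direction. Il1b moved likewise, to 0.30 at 2 h and 0.22 at 6 h. Tnf at 6 h moved to -0.18 (limma adjusted p = 0.0300), its ratio being higher on flip than on fluor arrays. Every statement below that a gene was lower rests on the deposited direction.

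The promoters of RT1-Db1, RT1-Ba and RT1-DMa are shown because they carry the X and Y box letters of class II genes in the same order and at nearly the same spacing. The lines give the 150 bases before the annotated transcript start, 5′ to 3′ on the gene's strand, from RefSeq (GRCr8), in which 4 of the 5 members had a promoter. They lie at chr20:4560163-4560312 (minus strand) for RT1-Db1, at chr20:4576907-4577056 (plus strand) for RT1-Ba and at chr20:4712336-4712485 (minus strand) for RT1-DMa. Capitals mark the letters GCNACNG (X box) and TGATTGG (Y box).
RT1-Db1: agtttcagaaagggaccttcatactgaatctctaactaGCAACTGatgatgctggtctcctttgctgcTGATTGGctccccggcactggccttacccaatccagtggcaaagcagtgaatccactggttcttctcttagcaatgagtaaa
RT1-Ba: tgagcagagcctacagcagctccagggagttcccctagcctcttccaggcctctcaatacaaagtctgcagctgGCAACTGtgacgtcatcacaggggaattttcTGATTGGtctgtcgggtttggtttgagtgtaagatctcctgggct
RT1-DMa: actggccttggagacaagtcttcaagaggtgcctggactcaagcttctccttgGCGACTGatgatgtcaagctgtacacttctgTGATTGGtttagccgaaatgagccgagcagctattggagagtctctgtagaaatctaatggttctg

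In RT1-Ba and RT1-DMa 24 bases separated the X letters from the Y letters, and in RT1-Db1 23 bases did. The X letters began 76 bases before the start in RT1-Ba, 97 bases before it in RT1-DMa and 112 bases before it in RT1-Db1. Both motifs were written down after these promoters had been looked at and were searched on both strands in 33469 promoters of 300 bases each, 250 before and 50 after the start. The X letters alone were in 41.0% of promoters and the Y letters in 7.06%. X letters followed by Y letters at a distance of 10 to 30 bases were in 57 promoters (0.170%), among them 7 of the 10 promoters found for a list of 11 class II genes. The promoter of Ctss held the X letters and not the Y letters. A match of letters is a description of the sequence, and binding was not measured.

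**Figure D1:**
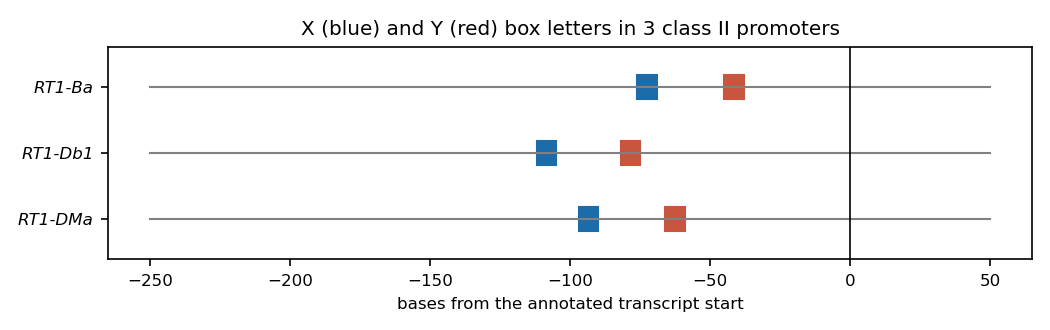
Positions of the X box letters (blue) and Y box letters (red) in the promoters of RT1-Ba, RT1-Db1 and RT1-DMa, in bases from the annotated transcript start (vertical line); the grey line spans the searched window. The X letters precede the Y letters by 24, 23 and 24 bases.

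After LPS the measured chains of the peptide-presenting molecules, 1 of each (RT1-Ba and RT1-Db1), and the beta chain of DM were lower than in the control pool at both times, at 55.6% to 65.5% of the pool, while the alpha chain of DM lay much closer to it. All 48 array values of these 4 genes were below 0, with 12 arrays for each gene. At 2 h, 3 of the 4 measured genes fell (limma, Benjamini-Hochberg adjusted p under 0.05, the threshold used throughout), against a background of 9.82% of all genes called lower at that time (387 of 3939). At 6 h, 4 of 4 fell, against a background of 10.7% (422 of 3939). The 6 h call of RT1-DMa was lost when any 1 of the 3 rats was left out. The members were chosen with earlier results of these data known, so these counts beside the background are a description. At the same threshold 9.34% of all genes were called higher at 2 h (368) and 8.30% at 6 h (327). The median gene stood at -0.0070 at 2 h and at 0.0069 at 6 h. Being below 0 on all 12 arrays was shared by 251 genes (6.37%). In RNA of whole blood, fewer cells of a type and less RNA per cell cannot be told apart.

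**Figure D2:**
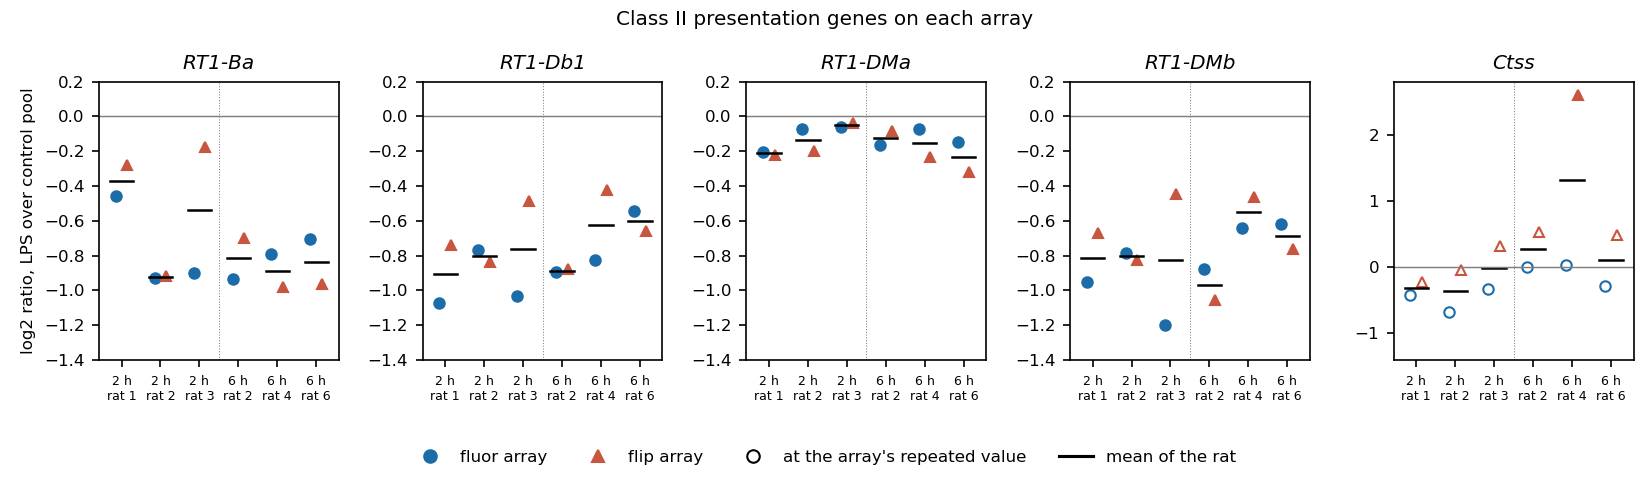
Log2 ratio of LPS over control pool (vertical axis, a wider range for Ctss) on each array of each rat (horizontal axis) for the 5 genes; circles are fluor arrays, triangles flip arrays, black bars the mean of a rat, and hollow symbols values that equal the value repeated across many probes of that array. RT1-Ba, RT1-Db1, RT1-DMa and RT1-DMb lie below 0 on all 12 arrays, and Ctss has 1 filled symbol.

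RT1-Ba encodes the alpha chain of RT1-B, a classical peptide-presenting class II molecule of the rat. At 2 h its log2 ratios were -0.37 in rat 1, -0.92 in rat 2 and -0.54 in rat 3. At 6 h they were -0.82 in rat 2, -0.89 in rat 4 and -0.84 in rat 6. The 3 rats at 6 h lay close together, while those at 2 h were spread widely and rat 2 at 2 h was as low as the rats at 6 h. RT1-Ba fell by 0.61 ± 0.28 (SD) at 2 h, 1.53-fold (limma adjusted p = 0.00586), and by 0.85 ± 0.04 at 6 h, 1.80-fold (limma adjusted p = 0.00131). From the flip arrays alone its 2 h mean was -0.46 and did not pass (limma adjusted p = 0.0806).

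RT1-Db1 encodes a beta chain of RT1-D, the other classical class II molecule. At 2 h the log2 ratios were -0.90 in rat 1, -0.80 in rat 2 and -0.76 in rat 3. At 6 h they were -0.89 in rat 2, -0.62 in rat 4 and -0.60 in rat 6. The rats of the 2 times overlapped. RT1-Db1 fell by 0.82 ± 0.07 (SD) at 2 h, 1.77-fold (limma adjusted p = 0.000453), and by 0.70 ± 0.16 at 6 h, 1.63-fold (limma adjusted p = 0.000466). Rats also have the closely related gene RT1-Db2, and hybridisation of its transcripts to the RT1-Db1 probe cannot be told apart from that of RT1-Db1 here.

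RT1-DMb encodes the beta chain of DM, the peptide exchange factor. Its log2 ratios at 2 h were -0.81 in rat 1, -0.80 in rat 2 and -0.82 in rat 3. At 6 h they were -0.97 in rat 2, -0.55 in rat 4 and -0.69 in rat 6. The near identity of the rats at 2 h was one of means: the 2 arrays of rat 3 stood at -1.20 (fluor) and -0.45 (flip). RT1-DMb fell by 0.81 ± 0.01 (SD) at 2 h, 1.76-fold (limma adjusted p = 0.000814), and by 0.74 ± 0.21 at 6 h, 1.67-fold (limma adjusted p = 0.000755).

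RT1-DMa encodes the alpha chain that pairs with the product of RT1-DMb. Its log2 ratios at 2 h were -0.21 in rat 1, -0.13 in rat 2 and -0.05 in rat 3, and at 6 h they were -0.12 in rat 2, -0.15 in rat 4 and -0.23 in rat 6. All lay just below 0 and the rats of the 2 times overlapped. The 2 h mean of -0.13 ± 0.08 (SD), 91.2% of the pool, missed the threshold (limma adjusted p = 0.0603). At 6 h RT1-DMa fell by 0.17 ± 0.06, 1.13-fold (limma adjusted p = 0.0271). This call was lost when any 1 of the 3 rats was left out, with adjusted p = 0.0848 without rat 2, 0.0932 without rat 4 and 0.121 without rat 6 at 6 h.

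The 2 chains of DM stood at different ratios in the same RNA. RT1-DMa minus RT1-DMb was 0.40 to 0.84 in the 6 rats (mean 0.62 ± 0.17 SD), with RT1-DMb the lower chain in 6 of 6. RT1-Ba and RT1-Db1 were likewise lower than RT1-DMa in 6 of 6 rats, by -0.79 to -0.16 and by -0.76 to -0.37. RT1-Db1 minus RT1-DMb, in contrast, lay between -0.09 and 0.09 (mean 0.012 ± 0.079). These gaps in ratio were not tested, and unlike ratios on different probes can also come from the probes' own response.

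Ctss encodes cathepsin S, the protease that trims the invariant chain in antigen-presenting cells, and its ratio was taken as not measured at 2 h. On 11 of the 12 arrays its probe held the one value that 242 to 298 probes of that array shared exactly. What this repeated value stands for is not given in the sources used here. The exception was the flip array of rat 4 at 6 h, at 2.59. The deposited means of -0.23 at 2 h and 0.56 at 6 h therefore say nothing of the transcript, and no test of Ctss is given. It was 1 of 188 probes at the repeated value on at least 11 arrays, and 80 probes held it on all 12.

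None of the 4 measured genes passed the test of 6 h minus 2 h, in which 0.508% of all genes were called (20 of 3939, and 569 at an unadjusted p under 0.05). RT1-Ba differed by -0.24 (SE 0.13, 95% interval -0.54 to 0.07, limma adjusted p = 0.469). The intervals of the difference ran from -0.08 to 0.32 for RT1-Db1, from -0.17 to 0.10 for RT1-DMa and from -0.16 to 0.31 for RT1-DMb. These intervals are not adjusted for the number of genes.

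By rank in the deposited direction, 12 of the 3939 genes had a lower mean than RT1-Db1 at 2 h and 37 at 6 h. For RT1-DMb these numbers were 14 and 32, and for RT1-Ba they were 39 and 19. RT1-DMa was far from that tail, with 511 genes lower at 2 h and 337 at 6 h. These ranks do not hold if the flip arrays are turned: at 2 h the number of lower genes was then 292 for RT1-Ba, 363 for RT1-Db1 and 253 for RT1-DMb, and at 6 h it was 2333, 1173 and 2177.

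**Figure D3:**
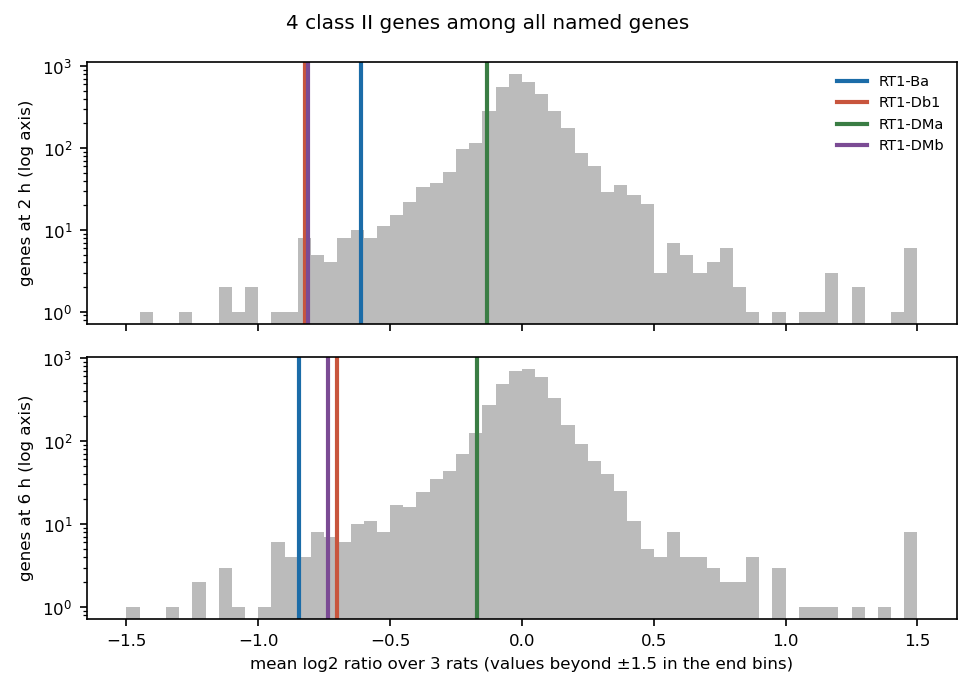
Number of genes (vertical axis, log scale) by mean log2 ratio over 3 rats (horizontal axis) for all 3939 genes at 2 h (top) and 6 h (bottom), with values beyond the axis in the end bins; coloured lines mark the 4 measured class II genes. RT1-Ba, RT1-Db1 and RT1-DMb lie in the lower tail at both times and RT1-DMa on the shoulder of the main peak, in the deposited direction; with the flip arrays turned their means ran from -0.16 to 0.04.

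The 2 array orientations gave unequal sizes at 2 h. The mean over fluor arrays and over flip arrays at 2 h was -0.76 and -0.46 for RT1-Ba, -0.96 and -0.69 for RT1-Db1, and -0.98 and -0.65 for RT1-DMb. At 6 h these pairs were -0.81 and -0.88, -0.75 and -0.65, and -0.71 and -0.76. For RT1-DMa they were -0.11 and -0.15 at 2 h and -0.13 and -0.21 at 6 h. The flip array of rat 3 was the 2 h array nearest to 0 for all 4 genes, at -0.17 for RT1-Ba, -0.49 for RT1-Db1, -0.04 for RT1-DMa and -0.45 for RT1-DMb. The standard deviation over all probes at 2 h was 0.40 to 0.48 on the fluor arrays and 0.27 to 0.28 on the flip arrays, and at 6 h it was 0.31 to 0.39 and 0.30 to 0.36. The part of these spreads in the members' values was not tested.

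Profiles over the 12 arrays were set against those of all other named genes, as a description in which the points share rats, pools and array orientation. RT1-Db1 and RT1-DMb had similar profiles (Pearson r = 0.879), and each was the third most similar gene to the other among 3938. The 2 non-members most like RT1-Db1 were Hint3 (r = 0.927) and Ndufb4 (0.920), and those most like RT1-DMb were Ndufb4 (0.922) and Parp4 (0.887). RT1-Ba was most like Rps28 (0.955) and Srpra (0.898), and RT1-DMa most like Atic (0.888) and Rbck1 (0.874). Pearson r leaves out the level of the ratios. The means at 2 h and 6 h were 0.17 and 0.03 for Srpra and -0.24 and -0.11 for Hint3, while Rps28 stood at -0.51 and -0.76. RT1-Ba correlated at 0.106 with RT1-Db1 and at 0.275 with RT1-DMb. RT1-DMa correlated at -0.158 with RT1-DMb, its partner in DM, at -0.164 with RT1-Db1 and at 0.201 with RT1-Ba.

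Probes numbered next to a member were examined because the ratios of RT1-Db1 stand between large ones of the opposite sign. The probe before RT1-Db1 is named Csnk2b, with means of 4.27 at 2 h and 5.10 at 6 h, and the probe after it is named Lcn2 (0.69 and 0.61). The probe after RT1-DMb is named Rpl35, with means of -0.52 and -0.79, and that after RT1-Ba is named Lamp1. With the median of the 10 nearest-numbered probes subtracted on each array, the means at 2 h were -0.56 for RT1-Ba, -0.89 for RT1-Db1, -0.14 for RT1-DMa and -0.66 for RT1-DMb. At 6 h they were -0.80, -0.92, -0.29 and -0.60, and each gene called as deposited was called here too. The sources used here do not say whether numbering follows the position on the slide.

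**Figure D4:**
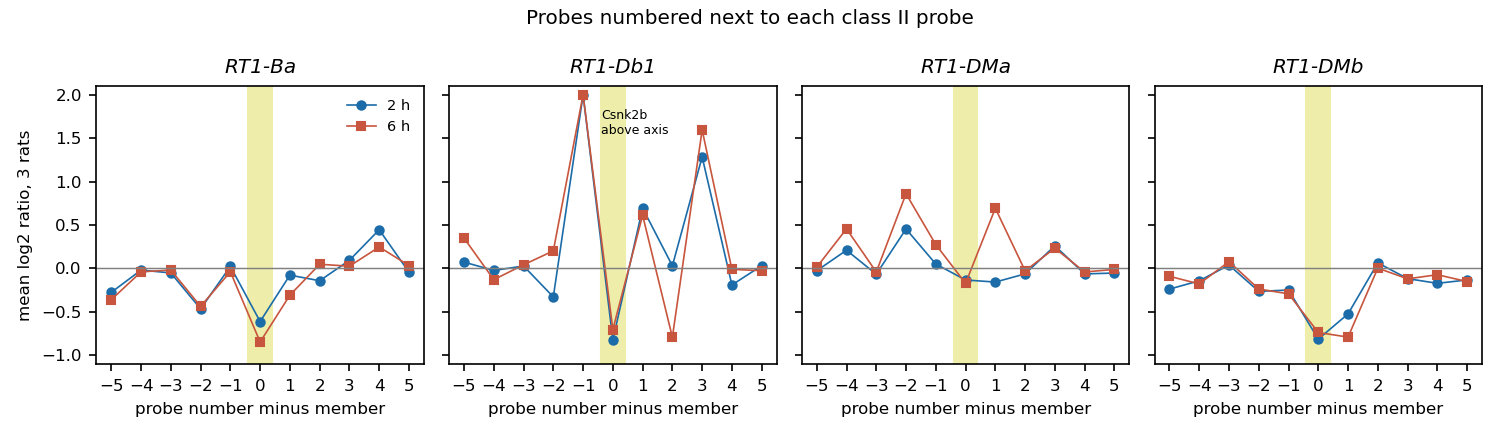
Mean log2 ratio over 3 rats (vertical axis, values above 2 drawn at 2) of the 5 probes numbered before and after each class II probe (horizontal axis, probe number minus the member's; shaded band the member), at 2 h in blue and 6 h in red. The drop at RT1-Db1 stands beside Csnk2b, whose means of 4.27 and 5.10 lie above the axis, and RT1-DMb is next to the likewise low Rpl35.

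Of 27 other listed genes of the class II pathway 8 were measured, with a median of -0.02 at 2 h and 0.00 at 6 h. Of these, 0 passed limma's test at either time (2 at an unadjusted p under 0.05 at each time), and beside the shares of all genes called (9.82% lower and 9.34% higher at 2 h, 10.7% and 8.30% at 6 h) a count of 0 among 8 is not a result about these genes. Among them were the promoter-binding factors of the class II genes: Rfxank, a subunit of the X box factor RFX, stood at -0.10 at 2 h and -0.01 at 6 h, and the NF-Y subunits that bind the Y box stood at 0.03 and 0.02 (Nfya), -0.08 and -0.01 (Nfyb), and -0.10 and -0.02 (Nfyc). The tetraspanin gene Cd82 stood at 0.27 and 0.39, and without rat 2 of 2 h its 2 h mean was 0.08. Some of these genes passed in alternatives: Rfxank at 2 h with the dye term and random block (adjusted p = 0.0268), scaling (0.0300) and quantile normalization (0.0313), and Cd63 at 2 h with scaling (0.0260) and quantile normalization (0.0346). Nfyb at 2 h (0.0242) and Canx at 6 h (0.0368) passed with the fluor arrays alone. They also passed with the flip arrays multiplied by -1 (0.0104 and 0.00688), as did Nfyb (0.0125) and Cd82 (0.0086) at 6 h. Cd82 passed at 2 h on fluor arrays only (0.0249) and with the random block (0.0471), and at 6 h in those settings (0.0088 and 0.00956), with the 6 h rats alone (0.00911) and without rat 2 (0.00817) or rat 3 (0.0403) of 2 h. The genes for the invariant chain, CIITA and the partner chains of RT1-Ba and RT1-Db1 were listed and not measured under a single symbol here.

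Of 15 measured lysosomal proteases, their inhibitors and lysosomal membrane proteins (25 listed), 1 rose and 3 fell at 2 h, and 2 rose and 4 fell at 6 h, with medians of -0.06 and -0.02. Against the shares of all genes called lower (9.82% and 10.7%) and higher (9.34% and 8.30%), these counts come from few genes and are given as a description. Ctse, an aspartic protease of endosomes, fell by 0.49 at 2 h and by 0.72 at 6 h, below 0 on all 12 arrays. With neighbouring probes subtracted its means were -0.23 and -0.42, both still called. Lamp1, a lysosomal membrane protein, fell by 0.31 at 6 h, Ctsc, which activates granule serine proteases, rose by 0.48 at 2 h over 2 probes (0.72 and 0.25), and Ctsl, a cysteine protease, rose by 0.19 at 6 h. From the flip arrays alone Ctsc at 2 h was 0.28, and Ctsl at 6 h was 0.43 on flip and -0.0488 on fluor arrays only. The other calls of this list were lost on leaving out 1 rat. Ctsa at 2 h (-0.39) had an adjusted p of up to 0.0620 without rat 1 or rat 3, and at 6 h (-0.39) of up to 0.0827 without rat 2 or rat 6. Lamp2 at 2 h (-0.26) reached 0.114 without rat 2 or rat 3, Ctsh at 6 h (-0.22) 0.0656 without rat 2, and Ctsc at 6 h (0.17) 0.109 without any 1 of the 3 rats.

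The genes of MHC class I presentation, which displays peptides from the cytosol, gave 1 lower call at 2 h and 2 higher calls at 6 h among 8 measured of 23 listed (9.82% of all genes were called lower at 2 h and 8.30% higher at 6 h), with medians of -0.01 and 0.16. B2m, the light chain of class I, rose by 0.36 at 6 h, with its 2 probes at 0.67 and 0.05, and Psmb9, an immunoproteasome subunit, rose by 0.37 at 6 h. Pdia3, a chaperone of the peptide-loading complex, fell by 0.19 at 2 h. These calls were fragile: the adjusted p was up to 0.0731 for B2m without rat 4 or rat 6, up to 0.197 for Psmb9 without any 1 of the 6 h rats or rat 1 of 2 h, and up to 0.164 for Pdia3 without rat 2 or rat 3 of 2 h or rat 2 of 6 h. On flip arrays only, B2m at 6 h (0.16) and Pdia3 at 2 h (-0.02) were not called.

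Of 24 listed regulators of CIITA and interferon-gamma signalling 5 were measured, with medians of 0.05 at 2 h and 0.02 at 6 h. Irf1, an interferon-induced transcription factor, rose by 0.21 at 2 h and by 0.46 at 6 h. Its 2 h call was lost without any 1 of the 2 h rats (adjusted p up to 0.0713), and its 6 h call was kept without any 1 rat. The 2 h call was also lost on flip arrays only (0.11, limma adjusted p = 0.545) and with the dye term and random block (0.0711). Beside 9.34% and 8.30% of all genes called higher, 1 of 5 is given as a description. The other 4 did not pass, among them Irf8, a factor of monocyte and B cell development, at -0.04 and -0.08, and Stat3 at -0.10 and 0.03, with its 2 probes at -0.33 and 0.12 at 2 h.

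**Figure D5:**
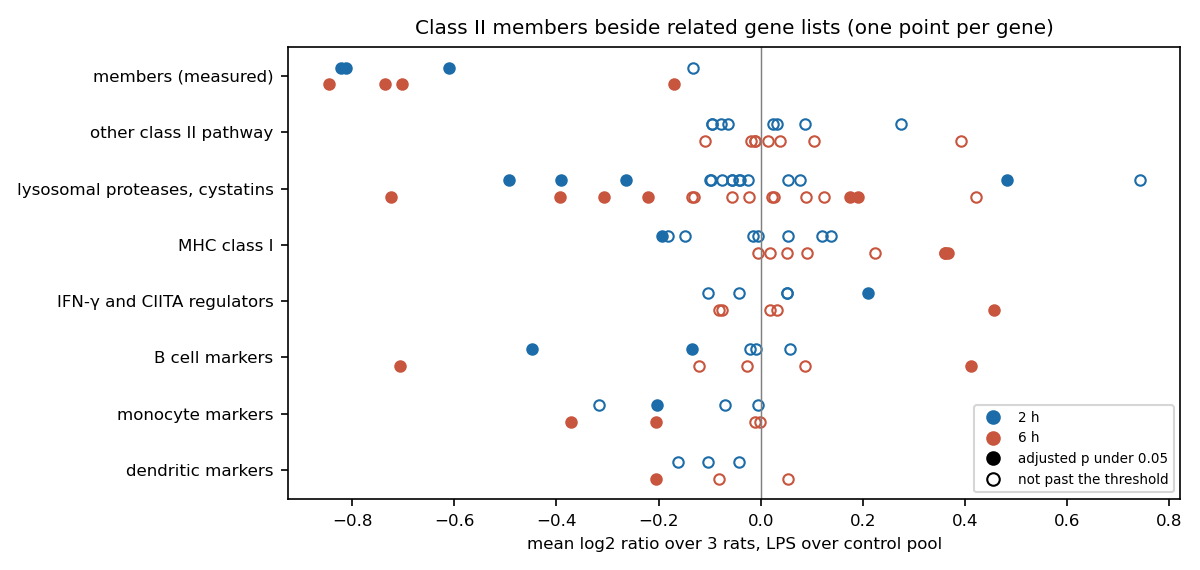
Mean log2 ratio over 3 rats (horizontal axis) of each measured gene in the lists named on the vertical axis, 2 h in blue and 6 h in red, filled where the limma adjusted p was under 0.05. The points of RT1-Ba, RT1-Db1 and RT1-DMb lie left of all 8 other class II pathway genes at both times.

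The measured genes between and beside the members on chromosome 20 were also examined. In the order of the GRCr8 annotation the measured genes are Ehmt2, Ppt2, Agpat1, RT1-Db1, RT1-Ba, Psmb9, RT1-DMb, RT1-DMa, Brd2, Slc39a7 and Hsd17b8, a list drawn up after it was seen which genes were measured. Of the 7 that are not members, 0 passed at 2 h (0 at an unadjusted p under 0.05) and 0 were called lower at 6 h. At shares of 9.82% and 10.7% of all genes called lower, 0 of 7 is near the background and not a result about the region. Psmb9, which lies between RT1-Ba and RT1-DMb, was called higher at 6 h (0.37, a call lost without any 1 of the 6 h rats), and so was Slc39a7, a zinc transporter gene (0.20), though the latter was not called without rat 2 or rat 6 of 6 h (adjusted p up to 0.140) or on flip arrays only (0.0087).

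Markers of the blood cells that carry class II were few and moved unevenly. Of 16 listed B cell genes 5 were measured, and the median over them in a rat was -0.09 to 0.0023 at 2 h and -0.09 to 0.0087 at 6 h. Cd37, a tetraspanin of mature B cells that other leukocytes express too, fell by 0.45 at 2 h and by 0.71 at 6 h. Blnk, an adaptor of the B cell receptor, was called lower at 2 h (-0.13), which was lost without any 1 of the 6 rats (adjusted p up to 0.176). Cd24 was called higher at 6 h (0.41), lost without rat 2 or 6 of 6 h or rat 1 or 3 of 2 h (up to 0.128). Cd72, a B cell surface receptor, stood at -0.02 and -0.03.

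Of 16 listed monocyte and macrophage genes 4 were measured, with rat medians of -0.21 to -0.09 at 2 h and -0.12 to -0.07 at 6 h. The complement gene C1qb was called lower at both times (-0.20 and -0.21). These calls rest on the fluor arrays (-0.38 and -0.33): on flip arrays only C1qb was at -0.02 at 2 h (adjusted p = 0.853) and at -0.08 at 6 h (0.408), and with scaled arrays the 2 h call was lost (0.0538). C1qc was called lower at 6 h (-0.37), a call that was lost without rat 2 (-0.22, adjusted p = 0.162) or rat 4 of 6 h, or rat 1 or 3 of 2 h. Lyz2, the lysozyme of myeloid cells, stood at -0.07 and -0.01. Of 12 listed dendritic cell genes 3 were measured, with rat medians of -0.12 to -0.05 and of -0.13 to -0.01. Among them Ccr7, a homing receptor that T cells also carry, was called lower at 6 h (-0.21), lost without any 1 of the 6 h rats or rat 3 of 2 h (adjusted p up to 0.189). Clec10a stood at -0.10 at 2 h and on the other side of 0 at 6 h (0.05), and Irf8 at -0.04 and -0.08, with neither called. With neighbouring probes subtracted Clec10a was at 0.21 at 6 h (limma adjusted p = 0.0516).

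In the other lists, whose counts stand beside the shares of all genes given above, the medians at 2 h and 6 h were -0.20 and -0.14 for 6 T cell genes, 0.60 and 0.29 for 6 neutrophil genes, 0.21 and 0.12 for 4 NK and cytotoxic genes, 0.12 and 0.15 for 10 erythroid genes and 0.26 and -0.18 for 2 platelet genes. T cell genes gave 2 lower calls at 2 h and 3 at 6 h, and neutrophil genes 4 higher and 1 lower at 2 h and 3 higher at 6 h. The neutrophil genes were uneven: S100a9 stood at 2.98 and 2.70, S100a8 at -0.08 and -0.05, and Chi3l1 at 0.57 and -0.37. Lcn2 and Il1r2 are also in the list of LPS-induced genes, so these lists are not independent. NK genes gave 2 higher calls at each time, erythroid genes 4 higher and 1 lower at 2 h and 3 lower at 6 h, and platelet genes 1 higher at 2 h. Among the T cell genes Cd3d fell by 0.39 at 2 h and by 0.69 at 6 h, and Lef1 by 0.23 and by 0.28. Ccr7 was called at 6 h only, and Cd5, Tcf7 and Thy1 were not called at either time. With 1 rat left out, the lower T cell calls ranged from 0 to 2 at 2 h and from 1 to 3 at 6 h, and the higher neutrophil calls from 3 to 4 and from 2 to 3. The higher erythroid calls at 2 h ranged from 1 to 4 and the lower ones at 6 h from 1 to 2. The part of shifts in blood cell types in the class II values was not tested.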

How the data were processed

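Gene expression in 6 LPS-treated rats was measured on 12 two-channel arrays. Per the file headers, each deposited value is a log2 ratio of the 2 channels for a probe on an array, and 0 values were missing. The sources used here do not give the dyes, the background correction or the normalization. The medians of the arrays were -0.020 to 0.0083, so the ratios were centred near 0 by a step that is unknown, and their direction is likely only. Intensities were not analysed here, so signal over background is unknown.

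Probes were named from the platform annotation with symbols updated through the GRCr8 gene table: of 7200, 4190 had 1 symbol, 46 several and 2964 none. Only those with 1 were named, giving 3939 genes, with probes of a gene averaged (236 genes had more than 1). The 2 arrays of a rat were averaged. Rat means of all genes were fitted with limma 3.58.1 (R 4.3.3; lmFit and eBayes, both times in 1 model), with Benjamini-Hochberg adjustment over all 3939 genes and a threshold of 0.05; the script was tested on simulated data. Every member is named, as are list genes that passed at either time and those with the largest means where under 3 passed. Also named are the 2 genes most like each member by Pearson r over 12 arrays, except for Ctss, at the repeated value on 11. For the NK, erythroid and platelet lists only counts and medians are given, and for the T cell and neutrophil lists some genes are named as well. The members and lists were chosen with earlier results of these data known. Alternatives covered the direction of the flip arrays, each orientation alone, a dye term with the rat as a random block, scaling, quantile normalization, all probes, repeated values left out, neighbouring probes subtracted, robust variances, 1 time per fit and each rat left out.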

Additional observations from a re-analysis of the deposited data

How the results depend on the processing

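RT1-Db1 and RT1-DMb kept their calls at both times, and RT1-Ba at 6 h, in every alternative except the flip arrays multiplied by -1; leaving that one out, RT1-Db1 ranged from -1.02 to -0.69 at 2 h and from -0.92 to -0.61 at 6 h. With the flip arrays multiplied by -1, which holds what differs between the 2 arrays of a rat as deposited, 0 members passed in place of 3 at 2 h and 0 in place of 4 at 6 h. There RT1-Ba (0.0351), RT1-DMa (0.0413) and RT1-DMb (0.0235) took the other sign at 6 h, as did RT1-DMa at 2 h (0.02). So did Ctse (0.017 at 2 h, 0.0513 at 6 h) and, at 6 h, Ctsa (0.0917), Ctsl (-0.24), Lamp1 (0.0708), Irf1 (-0.0298), Cd37 (0.0072) and Cd24 (-0.0038). Ctsl at 6 h was -0.0488 on fluor arrays only, and Pdia3 was 0.17 at 6 h on flip arrays only. RT1-DMa at 6 h was also lost on fluor arrays only (adjusted p = 0.0661) and with scaled arrays (0.0518), and its 2 h mean passed with the dye term and random block (0.0220). Causes were not tested.

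The number of all genes lower at 2 h was 387, against 588 on fluor arrays only, 169 on flip arrays only and 210 to 254 with a 2 h rat left out. At 6 h it was 422, against 647 with the flip arrays multiplied by -1 and 205 to 258 with a 6 h rat left out. For 6 h minus 2 h it was 20, against 0 with the flip arrays multiplied by -1, 4 on fluor arrays, 5 on flip arrays, 131 with the dye term and random block, 8 after quantile normalization, 10 with neighbours subtracted, and 2 to 31 with 1 rat left out. No paired analysis was possible because the times share only rat number 2. The number of arrays limits the precision.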
